A study of Mus musculus and Homo sapiens with 10 samples.

Results

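Expression of 10 transcription factors of the naive and core pluripotency network was followed in E14 mESCs, an established line of mouse embryonic stem cells, with and without vitC, and their human counterparts in hESCs. The members were taken by gene symbol (Nanog, Pou5f1, Sox2, Esrrb, Klf2, Klf4, Tfcp2l1, Zfp42, Tbx3 and Prdm14), and all 10 were found among the 25899 genes of the mouse table and, in upper case, among the 35720 genes of the human table. All mESC cultures were kept in 2i media, a serum-free medium that here held LIF, the MEK inhibitor PD-035901 and the GSK3 inhibitor CHIR-99021, and according to the methods they grew without feeder cells. Of the 8 mESC libraries, 4 came from untreated control cultures and 4 from cultures treated for 24 h with 100 µg/ml of the vitamin, and a control and a treated culture share each of the labels 10, 11, 35B and 35C. All were of 1 line, and the labels do not say whether the cultures were started from separate thaws or clones, so p-values cover these cultures only. Without the culture pair in the fit, they rest on the spread between cultures. With the pair in the fit, they rest on the spread of the differences within pairs. The human samples were 1 control and 1 vitC library of hESCs, the latter also treated for 24 h with 100 µg/ml. Both were grown in KSR/FGF medium, which keeps human cells in the primed state, and the labels name the line as H9. According to the methods, that medium was used for primed H9-NK2 cells, which carry doxycycline-inducible KLF2 and NANOG transgenes, and reads of a transgene could not be told from those of the cell's own gene.

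Oct4 (the product of Pou5f1) and Sox2 bind DNA side by side, at an octamer next to an HMG-box motif, and with Nanog they form the core of the network that keeps embryonic stem cells undifferentiated. Around this core, Esrrb, Klf2, Klf4, Tfcp2l1, Tbx3 and Prdm14 belong to the circuit of the naive state, the state closest to the epiblast before implantation. LIF acts through STAT3 on Klf4 and Tfcp2l1, inhibition of GSK3 relieves the repression of Esrrb by Tcf7l1, and Prdm14 keeps FGF signalling and de novo DNA methylation low. Zfp42, also known as Rex1, is widely used as a marker of naive cells. Human primed cells rely on POU5F1, SOX2 and NANOG but are known for low levels of several naive factors.

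The composite of both motifs, searched on both strands as CATTGT, any single base and then ATGCAAA, lay in the promoter of Nanog and in no other gene's promoter in the table. Promoters were the RefSeq windows of GRCm38.p6 from 250 bases before to 50 bases after an annotated start, of which the table holds 32851. The composite was found in 2 of these windows (0.00609%), and both belong to Nanog, whose annotated starts lie close together. The octamer core ATGCAAA, which the composite contains, was found in 4.63% of all windows and in those of Nanog, Sox2 and Zfp42, and the full octamer ATGCAAAT in 1.74% of all windows and in that of Zfp42. The HMG motif CATTGT, also a part of the composite, was found in 12.6% of all windows and in those of Nanog, Pou5f1 and Esrrb. Windows were matched for 8 of the 10 members, Prdm14 and Tbx3 being those without one. A match describes the letters only. The stretches below show the longest match in the promoters of Nanog and Sox2, both members of the core, each upstream of the gene's first exon and printed 5′ to 3′ on the strand of the gene with the match in capitals. For Nanog the match reads on the opposite strand.
Nanog, chr6:122707406-122707435, plus strand: cagcttctTTTGCATTACAATGtccatggt
Sox2, chr3:34649885-34649914, plus strand: cgccccctttcATGCAAAaccctctggcga

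Gene values are variance-stabilised, a log2-like transformation under which genes with few reads show smaller differences, and read numbers were recovered by inverting it. The mESC libraries held between 3354852 and 6921305 recovered gene reads, and rRNA repeats made up between 42.0% and 63.1% of their repeat counts. The first principal component took 61.9% of the variance and separated cultures 10 and 11 from cultures 35B and 35C, and the second took 14.3% and separated vitC from control libraries. Markers of other cells were low in sum. Fibroblast markers summed to between 46 and 143 reads per library, with the smooth muscle actin Acta2 and the matrix proteoglycan Dcn at 0 in all 8. The 19 germ layer and extraembryonic markers summed to between 236 and 680 reads, with Elf5, Hand1 and Mesp1 at 0. Of both lists, those with the most reads were Nes (90 to 265 per library), Krt8 (64 to 209), Cdx2 (4 to 117), Thy1 (7 to 116) and T (4 to 109). Between cultures 35B and 35C and cultures 10 and 11, T and Cdx2 each differed by -1.11 and Thy1 by 0.84 (limma adjusted p = 2.93e-10, 2.69e-10 and 2.15e-08). All 10 members had reads in every library.

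Pou5f1 was the most abundant member per length of exon, and Prdm14 the least. Levels between genes are given as RPM (each gene's recovered reads scaled to the library's total of gene reads) per kb of merged exon, as mean ± SD of the 4 control libraries. Pou5f1 was at 466 ± 76.1 and was followed by Sox2 at 225 ± 44.3, Zfp42 at 220 ± 17.1, Nanog at 212 ± 8.81, Tfcp2l1 at 188 ± 19.2 and Klf2 at 179 ± 8.98. Within the order from Sox2 to Klf2, no neighbours differed by more than the sum of their SDs. Esrrb at 118 ± 3.82, Klf4 at 78.0 ± 14.4, Tbx3 at 43.1 ± 3.62 and Prdm14 at 10.1 ± 1.57 each lay below the gene before it by more than that sum on this length, as Sox2 did below Pou5f1. The SDs span cultures 10 and 11 as well as 35B and 35C, between which Sox2 and Zfp42 differed in opposite directions (below). Tfcp2l1 had the most reads of all members, between 6077 and 13156 per library, on 9438 bases of exon, whereas Prdm14 had between 73 and 205 reads on 2564 bases. In vitC-treated cells the mean of Tfcp2l1 was 203 ± 26.3, the third highest, and that of Nanog 175 ± 16.6, the fifth. Taking the longest transcript in place of merged exons exchanged Sox2 and Zfp42 in the control order and put Pou5f1 at 769 ± 126. Esrrb was then at 165 ± 5.38, within the sum of SDs of Klf2.

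**Figure D1:**
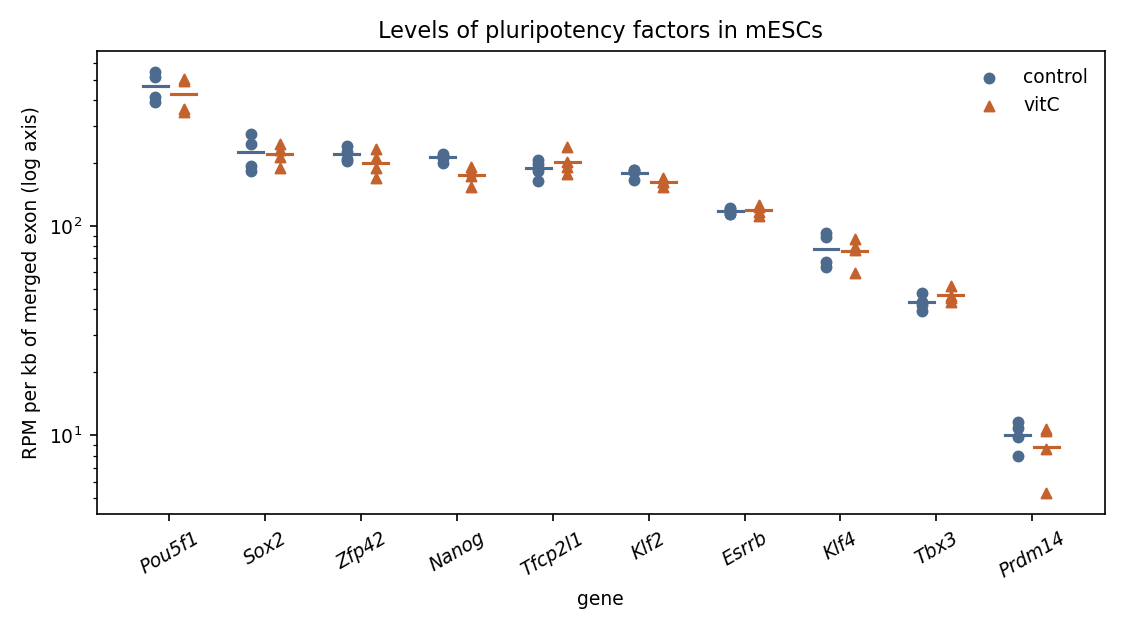
Level of each member in the 4 control libraries (circles) and the 4 vitC libraries (triangles), in RPM per kb of merged exon on a log axis, with short lines at the means and genes ordered by the control mean. Pou5f1 at a control mean of 466 lies above all others, 5 genes from Sox2 to Klf2 lie between 179 and 225, and Prdm14 is lowest at 10.1.

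The first comparison asked whether 24 h of vitC shifts the pluripotency factors of cells already in 2i media. Differences were small. Nanog, Pou5f1, Klf2 and Zfp42 were each lower in all 4 treated cultures than in their own controls, Nanog by the most, and Tfcp2l1 was higher in all 4. In limma and edgeR these 5 differences were past the threshold with the culture pair in the fit and not in the fit with treatment alone, and those of Sox2, Klf4 and Esrrb were 0.03 or less in size on the variance-stabilised scale. Without a term for the replicate number, limma called 0 of the 10 members at an adjusted p of 0.05, where it called 0.342% of the 14631 genes tested, and edgeR on recovered reads also called 0 (0.319% of its genes). At an unadjusted p below 0.05, limma had 1 member, Nanog (7.65% of all genes), edgeR the same 1 (7.6%) and DESeq2 2, Nanog and Klf2 (5.26%), with 0 past the adjusted threshold in DESeq2. In the paired fit, which adds the culture pair as a block, limma called 1 member higher and 4 lower, where it called 6.36% of all genes higher and 4.44% lower. Among the 1408 genes with a mean value above 10, where 9 of the members lie, the paired fit called 9.8% lower and 22.7% in either direction. In bulk RNA, fewer cells of a type and less RNA per cell cannot be told apart.

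Nanog (chr6:122707489-122714633, plus strand), the homeodomain factor of the core, was at variance-stabilised values of 11.32, 11.37, 11.24 and 11.38 in control cultures 10, 11, 35B and 35C. The treated cultures were at 10.89, 11.08, 11.14 and 11.18 in the same order. All treated libraries lay below all control libraries, which held for Nanog alone among the members and for 5.28% of all genes in either direction. The control mean of 11.33 ± 0.06 and the treated mean of 11.07 ± 0.13 (each SD, n = 4) differ by -0.25 (unpaired standard error 0.07, limma adjusted p = 0.332). In the paired fit the standard error was 0.04 and the limma adjusted p = 0.000647, and on recovered reads Nanog fell by 17.2% in the paired edgeR fit (adjusted p = 0.000134). The paired DESeq2 fit also called it (adjusted p = 0.000171), as it did 3.74% of all genes in either direction and 1.12% lower. The recovered reads behind these values were between 2022 and 3433 per control library and between 1383 and 2268 per vitC library.

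Pou5f1 (chr17:35506018-35510772, plus strand), which encodes the POU factor Oct4, was at 12.25, 12.19, 12.56 and 12.64 in the control cultures, in the order above. With vitC it was at 12.02, 12.10, 12.50 and 12.53. Each treated culture was below its own control, by between 0.06 and 0.22, but the groups overlapped because cultures 35B and 35C were higher than cultures 10 and 11 in both conditions. The difference of -0.12 had a standard error of 0.14 unpaired (limma adjusted p = 0.916) and 0.03 paired (limma adjusted p = 0.0221). Sox2 (chr3:34650405-34652461, plus strand), the HMG-box partner of Oct4, was at 11.42, 11.58, 11.08 and 10.998 in control and 11.33, 11.43, 11.22 and 11.05 in vitC-treated cultures. It was lower with vitC in cultures 10 and 11 and higher in 35B and 35C, and its mean difference of -0.01 had a paired 95% interval from -0.10 to 0.08 (limma adjusted p = 0.928). Sox2 lies within the long noncoding gene Sox2ot on the same strand, which had between 8 and 29 reads per library.

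Klf2 and Klf4 are Krüppel-like factors that take part in reprogramming and in the naive circuit. Klf2 (chr8:72319033-72321656, plus strand) was at 10.85, 10.89, 10.88 and 10.73 in control and 10.71, 10.66, 10.77 and 10.70 in vitC-treated cultures. It was lower with vitC in all 4 pairs, with overlap through the control of culture 35C. Its difference of -0.13 was past the threshold in the paired fit (standard error 0.04, limma adjusted p = 0.0351) and not in the unpaired fit (limma adjusted p = 0.665). Klf4 (chr4:55527143-55532466, minus strand), a target of LIF signalling, was at 10.56, 10.63, 10.21 and 10.14 in control and 10.44, 10.56, 10.38 and 10.06 with vitC. Only culture 35B was higher with vitC, and the mean difference of -0.03 had a paired 95% interval from -0.12 to 0.07 (limma adjusted p = 0.778). Whether the difference of Klf2 differs from that of Klf4 was not tested.

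In the naive circuit, Tfcp2l1 (chr1:118627945-118685168, plus strand), a factor downstream of LIF and STAT3, was at 13.25, 13.32, 13.13 and 12.97 in control and 13.28, 13.54, 13.20 and 13.09 in vitC-treated cultures. It was higher with vitC in all 4 pairs, by between 0.03 and 0.22, and was the only member of which that held. The mean difference of 0.11 had a standard error of 0.11 unpaired (limma adjusted p = 0.882) and 0.03 paired (limma adjusted p = 0.0231). Esrrb (chr12:86361117-86521628, plus strand), an orphan nuclear receptor, had the narrowest range over the 8 libraries, at 11.84, 11.92, 11.92 and 11.84 in control and 11.82, 11.90, 11.94 and 11.98 with vitC. The groups overlapped and the difference of 0.03 had a paired 95% interval from -0.04 to 0.10 (limma adjusted p = 0.641).

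Tbx3 (chr5:119670669-119684724, plus strand), a T-box factor, was at 10.65, 10.79, 10.60 and 10.51 in control and 10.66, 10.76, 10.89 and 10.71 with vitC. Cultures 35B and 35C were higher with vitC and cultures 10 and 11 were within 0.03 of their controls. Its difference of 0.12 did not pass in either fit (limma adjusted p = 0.786 unpaired and 0.104 paired). Prdm14 (chr1:13113457-13127163, minus strand) was at 7.80, 8.05, 7.96 and 8.09 in control and 7.52, 7.87, 8.02 and 8.03 with vitC. Its difference of -0.12 rested on 73 to 205 reads per library and did not pass in either fit (limma adjusted p = 0.883 unpaired and 0.212 paired). Zfp42 (chr8:43295063-43306980, minus strand), the Rex1 marker, was at 11.04, 11.08, 11.26 and 11.17 in control and 10.79, 10.96, 11.22 and 11.07 with vitC. It was lower with vitC in all 4 pairs, the groups overlapped, and the difference of -0.13 passed in the paired fit only (standard error 0.04, limma adjusted p = 0.0356, against 0.830 unpaired).

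**Figure D2:**
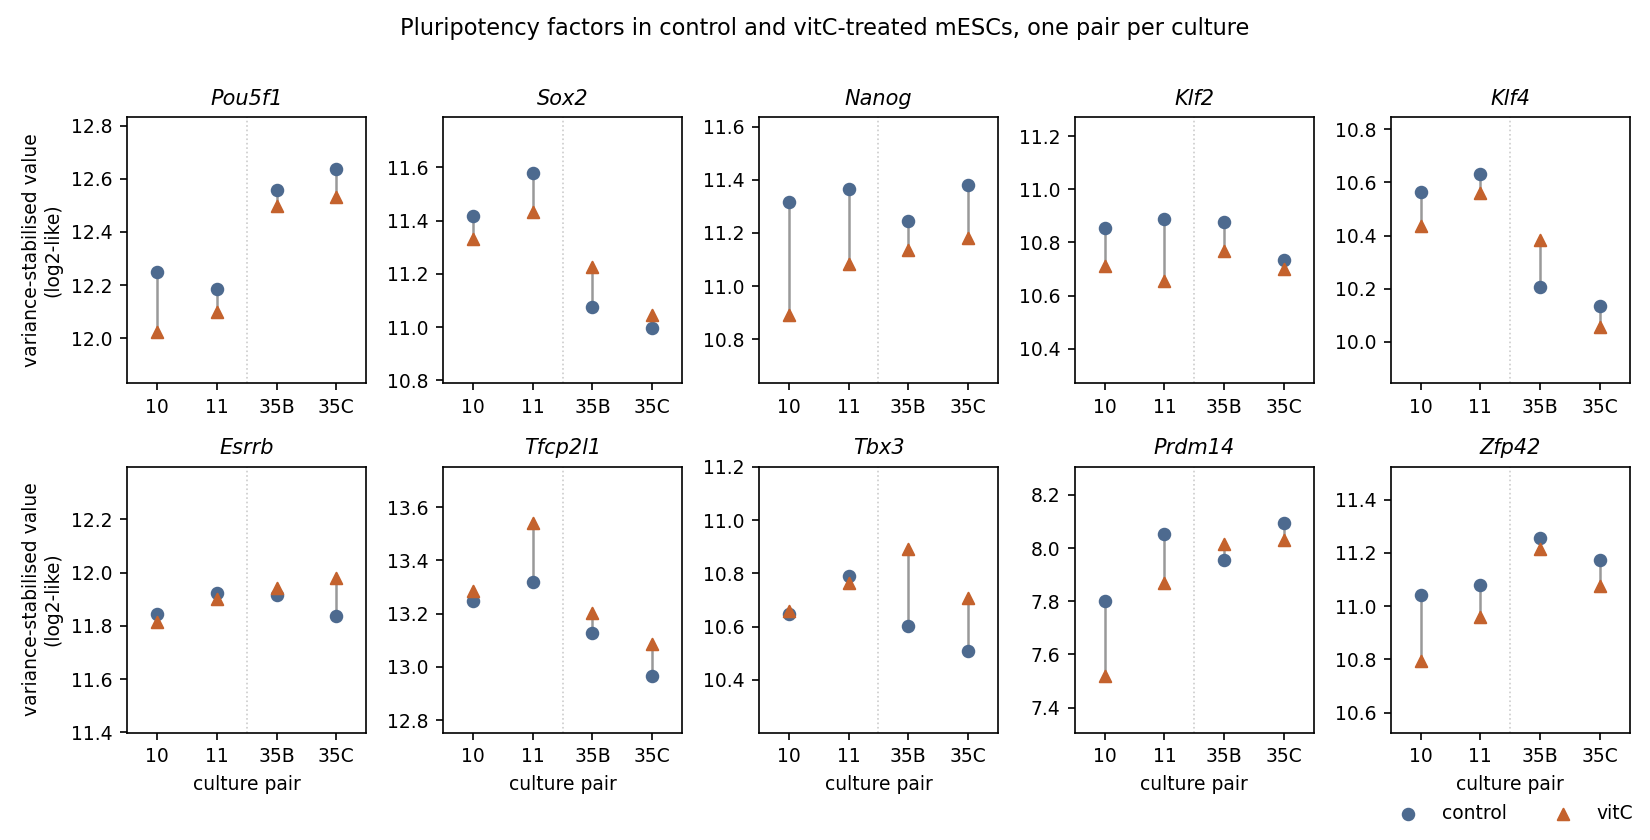
Variance-stabilised value (log2-like, each panel spanning 1 unit) of each member in control (circles) and vitC-treated (triangles) cultures, joined by a line within each of the culture pairs 10, 11, 35B and 35C. Nanog is the only panel in which every triangle lies below every circle, and Pou5f1, Sox2 and Klf4 step between cultures 10 and 11 and cultures 35B and 35C.

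Counted over pairs, 4 members were lower with vitC in all 4 pairs (Nanog, Pou5f1, Klf2 and Zfp42), where 14.4% of all genes were, and 1 was higher in all 4, where 15.4% of all genes were. In culture 10, 8 members were lower and 2 higher, and in culture 11, 9 were lower and 1 higher. Culture 35B went the other way, with 6 higher and 4 lower, and in culture 35C 4 were higher and 6 lower. The median difference over the members was -0.13, -0.10, 0.04 and -0.05 in these pairs, and the median over all genes lay between 0 and 0.00359 in size in each of them.

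The call of Nanog in the paired fit held without any 1 of the 4 pairs, with limma adjusted p between 0.000363 and 0.00688. The other paired calls did not: Pou5f1 was not past the threshold without pair 10 or 35C (limma adjusted p = 0.0905 and 0.0769), Klf2 without pair 10, 11 or 35B (0.0952, 0.194 and 0.0730), Zfp42 without pair 10, 11 or 35C (0.168, 0.0617 and 0.0884), and Tfcp2l1 without pair 11 or 35C (0.155 and 0.0962). Conversely, Tbx3 passed without pair 11 (difference 0.17, limma adjusted p = 0.0226). Of the 10 members the paired DESeq2 fit called Nanog alone, where 1.12% of all genes were called lower, with adjusted p between 0.0620 and 0.188 for Pou5f1, Tfcp2l1, Zfp42 and Klf2. In the paired edgeR fit, which called 6.3% of 12337 genes lower and 8.55% higher, Pou5f1 fell by 8.17%, Klf2 fell by 9.22% and Zfp42 fell by 8.98%, and Tfcp2l1 rose by 8.33% (adjusted p between 0.0182 and 0.0231).

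**Figure D3:**
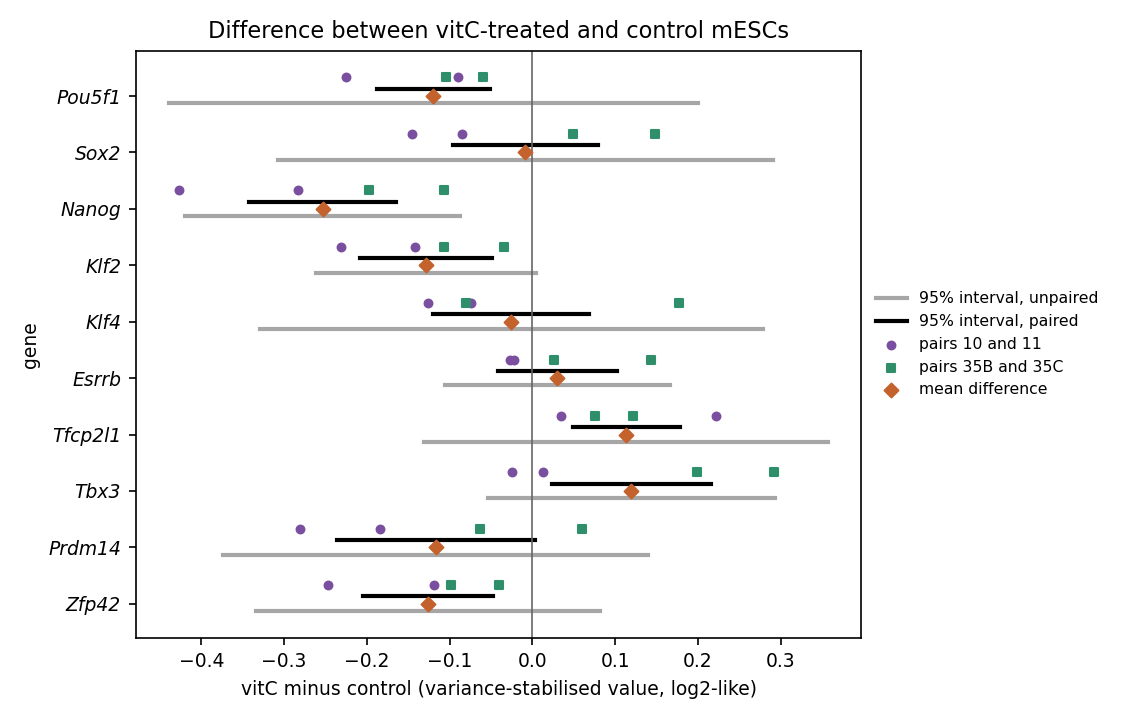
Difference between vitC-treated and control mESCs for each member on the variance-stabilised scale (diamonds, mean; grey and black lines, 95% intervals of the unpaired and paired limma fits; dots and squares, single pairs). The paired intervals of Nanog, Pou5f1, Klf2 and Zfp42 lie below 0 and those of Tfcp2l1 and Tbx3 above 0, and of the unpaired intervals only that of Nanog leaves out 0.

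The second comparison was between the culture sets, read from the culture labels, with treatment in the fit. Each set held 2 cultures, and the control and the treated library of a culture share its label, so the 4 libraries of a set are not independent and the p-values over libraries may be too small. More members were called than with vitC: limma called 3 of the 10 higher in cultures 35B and 35C and 3 lower, where it called 18.9% of all genes higher and 21.5% lower. In either direction limma called 40.5% of all genes. Pou5f1 was at 12.14 ± 0.10 (SD, n = 4) in cultures 10 and 11 and 12.56 ± 0.06 in cultures 35B and 35C, which were higher by 0.42 (standard error 0.04, limma adjusted p = 4.02e-07). Sox2 went the other way, from 11.44 ± 0.10 to 11.09 ± 0.10 (difference -0.35, standard error 0.06, limma adjusted p = 6.51e-05), and so did Klf4, from 10.55 ± 0.08 to 10.20 ± 0.14 (difference -0.35, standard error 0.06, limma adjusted p = 0.000155). Tfcp2l1 was lower by 0.25 in cultures 35B and 35C, at 13.10 ± 0.10 against 13.35 ± 0.13 (limma adjusted p = 0.00116). For these 4 genes the libraries of the sets did not overlap, which held for 32.1% of all genes.

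Zfp42 and Prdm14, the other members called, were each higher by 0.21 in cultures 35B and 35C (limma adjusted p = 0.00247 and 0.0326), and their sets overlapped. With 1 mean value for each culture, 2 against 2, limma called 2 members higher and 3 lower, where it called 14.7% of all genes higher, 18.1% lower and 32.8% in either direction. Pou5f1 (limma adjusted p = 0.000256), Sox2 (0.00168), Klf4 (0.00234), Tfcp2l1 (0.0225) and Zfp42 (0.0231) passed there, and Prdm14 did not (0.0693). Over the control libraries alone, Zfp42 differed by 0.16 and Prdm14 by 0.10, neither past the threshold (limma adjusted p = 0.103 and 0.476). Prdm14 also lost its call when either of the controls of cultures 10 and 35C or the vitC library of culture 10, 35B or 35C was left out, with limma adjusted p between 0.0659 and 0.169. The sets did not differ past the threshold for Nanog (0.07, limma adjusted p = 0.312), Esrrb (0.05, 0.404), Klf2 (-0.01, 0.916) or Tbx3 (-0.04, 0.654). Nanog, the member with the largest vitC difference, was thus among those that differed little between sets. The share of rRNA repeats moved with the set, between 42.0% and 51.5% in cultures 10 and 11 and between 60.0% and 63.1% in cultures 35B and 35C, and its part in these differences was not tested.

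The third comparison asked whether the vitC difference depended on the set. On the variance-stabilised scale, Nanog differed with vitC by -0.36 in cultures 10 and 11 and by -0.15 in cultures 35B and 35C, and Tbx3 by -0.01 and 0.25. Sox2 went from -0.12 to 0.10, Prdm14 from -0.23 to -0.00 and Klf4 from -0.10 to 0.05. Of the 10 members, 9 had a more positive difference in cultures 35B and 35C, all except Tfcp2l1, at 0.13 and 0.10. The share of all genes with a more positive difference there was not taken. The members are also not independent, since some moved together, such as Sox2 and Klf4 (Pearson's r = 0.971 over the 8 libraries). By the test of the difference itself, limma called 0 of the 10 members, where it called 0% of all genes without the block and 0.0889% with it, and edgeR called 0 as well. At an unadjusted p below 0.05 stood Tbx3 in the unpaired limma fit (4.11% of all genes), and Nanog, Sox2, Tbx3 and Prdm14 in the paired limma fit (7.34% of all genes). The estimate for Tbx3 was 0.25, with a 95% interval from 0.02 to 0.48 unpaired (limma adjusted p = 1.00, unadjusted 0.0328) and from 0.11 to 0.40 paired (limma adjusted p = 0.307). The estimate for Nanog was 0.20, with a paired 95% interval from 0.06 to 0.35 (limma adjusted p = 0.533).

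**Figure D4:**
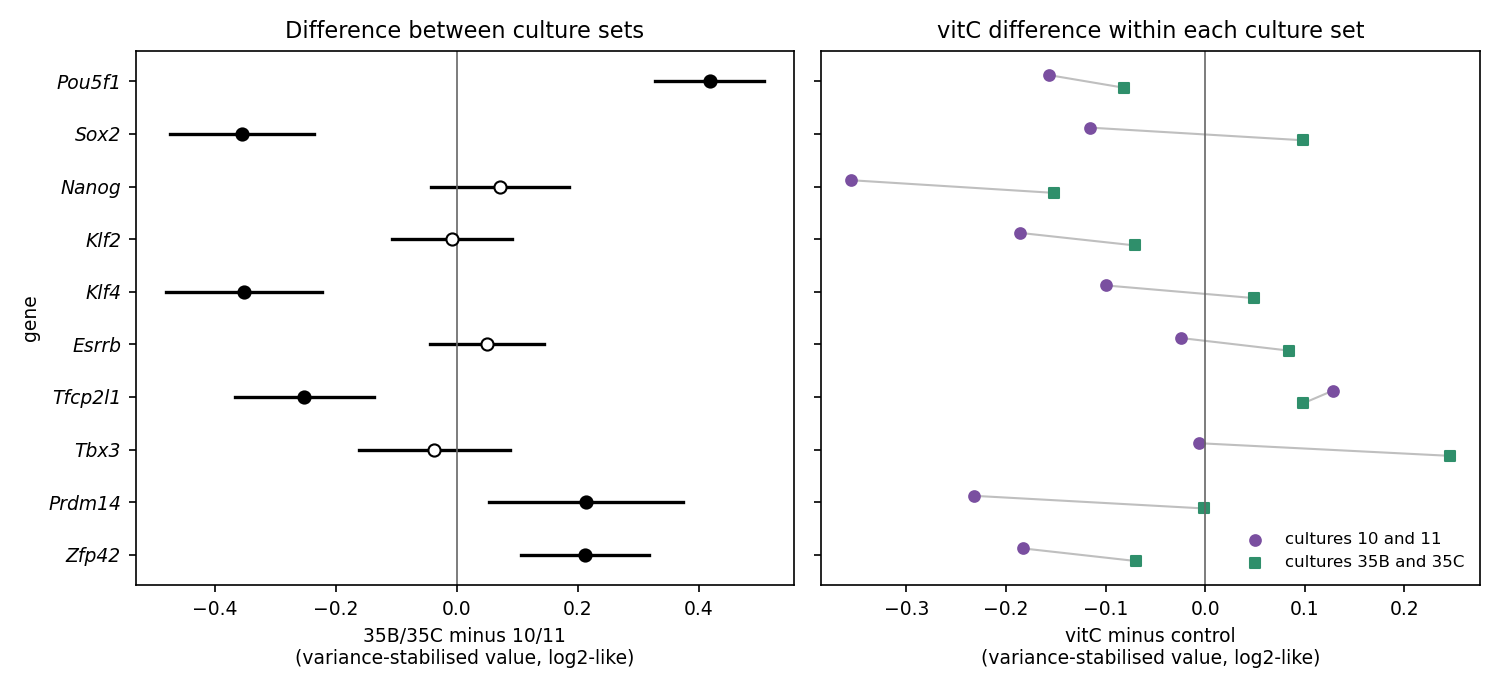
Left, difference between cultures 35B/35C and cultures 10/11 for each member with its 95% interval (filled points, limma adjusted p below 0.05). Right, mean vitC difference within cultures 10 and 11 (circles) and within cultures 35B and 35C (squares), both on the variance-stabilised scale. Pou5f1 at 0.42 and Sox2 and Klf4 at -0.35 stand at the ends on the left. On the right 9 of 10 squares lie to the right of their circles, and the share of all genes that do so was not taken.

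The wider network was read from lists of genes of the same pathways, in all of which 0 genes passed in the unpaired limma fit. Of 23 other naive and core genes, 4 were higher and 5 lower with vitC in the paired fit, with a median difference of -0.00, as over all genes, of which 6.36% were higher and 4.44% lower. Those with the smallest p were Tdgf1, the Nodal co-receptor Cripto (-0.40, limma adjusted p = 9.53e-05), Dppa5a, an RNA-binding protein of pluripotent cells (-0.25, 0.000527), and Gdf3, a ligand of the TGF-beta family (-0.22, 0.00150). Next came Gbx2, a homeobox target of STAT3 (0.23, 0.00314), and Dppa3, the maternal factor Stella (0.30, 0.00363, at 13 to 179 reads per library). Tdgf1 was at 9.57, 9.82, 10.16 and 10.39 in control and 8.92, 9.35, 9.94 and 10.14 in vitC-treated cultures, so that each treated culture was below its own control. Gdf3 was at 9.65, 9.68, 9.71 and 9.64 in control and 9.39, 9.49, 9.49 and 9.45 with vitC. Its groups did not overlap, which held for 5.28% of all genes in either direction.

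The paired limma fit called 6.36% of all genes higher and 4.44% lower, and 22.7% either way of those with a mean value above 10. Of the 11 genes of the LIF and STAT3 pathway, 2 were higher and 0 lower in the paired fit, with a median of 0.04. They were Il6st, the gp130 subunit of the LIF receptor (0.21, limma adjusted p = 0.00197), and Pim1, a kinase induced by STAT3 (0.18, 0.00861). Il6st was at 10.26, 10.31, 10.23 and 10.09 in control and 10.39, 10.61, 10.37 and 10.37 with vitC, without overlap between the groups (5.28% of all genes in either direction). Of 11 tested genes of the Wnt and GSK3 pathway, 3 were higher and 0 lower, with a median of 0.11. All 3 encode parts of the complex that degrades beta-catenin: Axin2, also a target of Wnt signalling (0.23, limma adjusted p = 0.00501), Apc (0.18, 0.00557) and Axin1 (0.15, 0.0225). The GSK3 genes of the same list, Gsk3b (0.11, paired limma adjusted p = 0.0676) and Gsk3a (-0.01, 0.916), did not pass. Axin2 was at 10.60, 10.48, 9.61 and 9.53 in control and 10.98, 10.82, 9.73 and 9.59 with vitC, and it differed between culture sets by -1.11 (limma adjusted p = 1.61e-10).

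Genes of the formative and primed states, which follow the naive state, were lower where they passed, but not all of the list went that way. Of 14 tested, 0 were called higher and 4 lower in the paired fit, with a median difference of -0.12. Over all genes, that fit called 6.36% higher and 4.44% lower. Lef1 (0.14), Otx2 (0.10), Dnmt3b (0.09) and Dnmt3a (0.06) were higher on average without passing (paired limma adjusted p between 0.132 and 0.452). Lefty2 and Lefty1, secreted antagonists of Nodal, fell by 0.74 and by 0.50 (limma adjusted p = 1.49e-06 and 0.000409), Etv4, a factor downstream of FGF signalling, differed by -0.26 (0.00404) and Zic2, a zinc finger factor, by -0.16 (0.0491). Lefty2 had 83, 335, 166 and 420 reads in the control cultures and 22, 103, 63 and 143 in the treated ones, lower in each pair. Of 15 tested germ layer and extraembryonic markers, 1 was higher (Pdgfra, a receptor of primitive endoderm, 0.23, limma adjusted p = 0.0260, at 2 to 30 reads per library) and 0 lower. Of other endoderm markers in that list, Gata4 (-0.10), Sox7 (-0.13) and Sox17 (-0.06) were lower on average and Foxa2 (0.09) higher, none past the threshold. Gata6, with 1 read over all control and 6 over all vitC libraries, was not among those tested. Of 4 tested fibroblast markers, 0 passed, and of 2 tested genes of the 2-cell state 1 did (Zscan4d, 0.24, limma adjusted p = 0.0331, at 0 to 6 reads per library). The summed reads of the 2-cell list were between 0 and 7 per control library and between 3 and 27 per vitC library, and their part in the differences of the members was not tested.

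The genes whose variance-stabilised values most resembled those of Nanog over the 8 mESC libraries were Epas1, Alyref, Vps37d, Rpap2 and Plxnb1, with Pearson's r between 0.943 and 0.978. For Esrrb they were Zfp598, Rrp36, Lemd2, Tead4 and Gmppb, with r between 0.917 and 0.963. No gene was among the closest for both members. These values describe 8 libraries that share culture pairs and sets and were picked as the highest among all genes tested.

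In hESCs the members fell into abundant ones and ones near 0. The control and the vitC library held 15367652 and 17188555 recovered gene reads, and with 1 library per condition there was no test. SOX2 was the most abundant per length, at 140 RPM per kb of merged exon in the control library, followed by PRDM14 at 45.3, ZFP42 at 27.3, POU5F1 at 23.4, NANOG at 7.76 and KLF4 at 1.46. ESRRB had 1 read without and 6 with vitC, KLF2 had 3 and 3, TFCP2L1 had 7 and 9, and TBX3 had 11 and 34. PRDM14, the least abundant member in mESCs, was second as listed in hESCs, and Esrrb, Klf2 and Tfcp2l1, each above 100 in mESCs, were below 0.1 here. Of 12 genes of the human naive state, 8 were below 1 RPM, scaled to all gene reads, in both libraries, TFCP2L1 itself among them. Of 19 genes of the primed state, 16 were above 10. The shares of all genes at such levels were not taken. POU5F1 shares its sequence with the retrogene POU5F1B, which was listed with 3062 and 3846 reads against 1034 and 1173 for POU5F1, so that the split of reads between them, and with it the rank of POU5F1, is uncertain.

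NANOG had 643 reads without and 847 with vitC, 1.18 times the share of gene reads (exact 95% Clopper-Pearson interval of counting error from 1.06 to 1.31). PRDM14 had 1649 and 1654, 0.897 times the share (0.837 to 0.961), and TBX3 2.76 times (1.37 to 6.05). For these 3 members the interval left out 1, which it did for 28.1% of the 14769 genes with at least 20 reads in all. POU5F1 at 1.01 times (0.932 to 1.10), SOX2 at 1.00 times (0.967 to 1.04), ZFP42 at 0.951 times (0.876 to 1.03) and KLF4 at 1.14 times (0.849 to 1.55) had intervals that hold 1. POU5F1 and POU5F1B summed to 4096 and 5019 reads, 1.10 times the share (1.05 to 1.14). Only TBX3 differed by at least 1.5-fold among the members with at least 20 reads, as 9.34% of such genes did. The gene reads exceeded the aligned library sizes of 8692246 and 9482130, so a recovered unit may not be a single fragment and the intervals may be too narrow. With halved reads, those of NANOG (1.02 to 1.37) and PRDM14 (0.814 to 0.989) still left out 1 and that of TBX3 did not (0.953 to 7.85). NANOG was thus lower with vitC in each of 4 mESC pairs and higher in the single hESC comparison, in libraries of another species, medium and line that were not tested against each other.

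**Figure D5:**
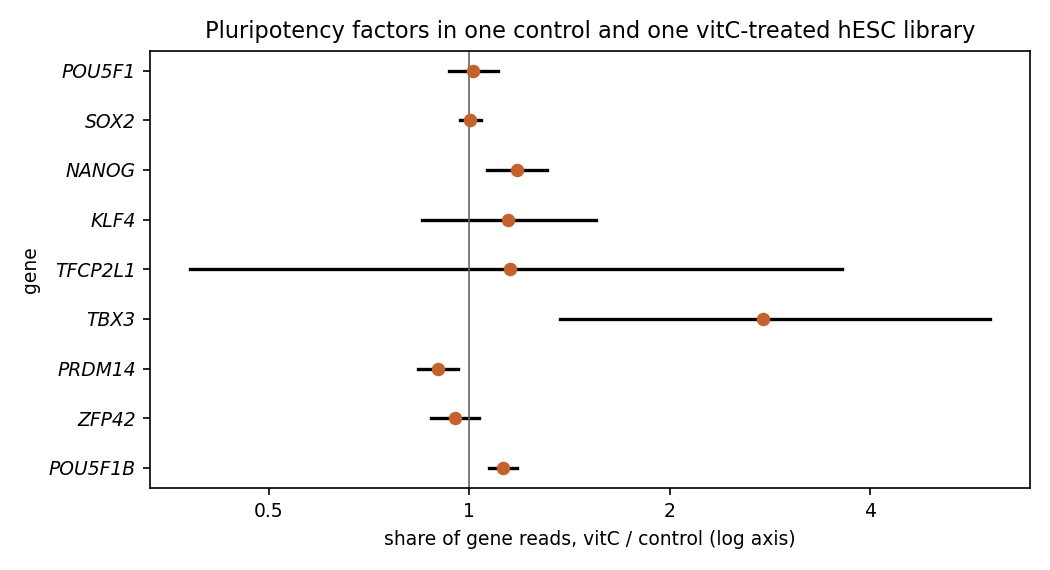
Share of gene reads in the vitC library divided by that in the control library of hESCs on a log axis, with exact 95% intervals that cover counting error only, for the members other than ESRRB and KLF2 and for POU5F1B. The intervals of NANOG, TBX3 and POU5F1B (1.12 times, 1.07 to 1.18) lie above 1 and that of PRDM14 below 1, while SOX2 at 1.00 has the narrowest.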

How the data were processed

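RNA-seq was analysed for 8 mESC and 2 hESC libraries, and none was left out. The authors used SQuIRE to map reads (mm10 for mouse, hg38 for human) and to count them. The submitters' processing notes also name Trim Galore, HISAT2 and DESeq2, and versions are not given in the sources used here. The labels name rRNA depletion or mRNA isolation without saying which was used, and the methods name depletion. Libraries were directional, but whether counting used strand is not given in the sources used here, so reads of Pou5f1, Tbx3, Tfcp2l1 and Sox2 and of the genes that overlap them may be mixed. Strand would not separate Sox2 from Sox2ot or Tfcp2l1 from the snRNA gene Gm23497, which lie on the same strand. The gene tables deposited by the authors hold variance-stabilised values, log2-like and scaled for depth. For repeat subfamilies, the authors deposited expected counts, used here only for the share of rRNA, and the aligned library size of each library. 7 other columns of per-sample values were not used.

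Reads were recovered by inverting the transformation, with the smallest step in each library taken as 1 read, and 100% of 116385 mESC values and 38034 hESC values came out whole within 0.01 read. The deposited values of the 14631 genes that exceeded the table's lowest value in 4 or more libraries were tested with limma 3.58.1 in R 4.3.3, using lmFit and a trended eBayes, with Benjamini-Hochberg adjustment and a threshold of 0.05. On recovered reads, edgeR 4.0.16 (quasi-likelihood) and DESeq2 1.42.0 were alternatives. Scripts were tested on simulated data. Replicate numbers were taken as pairs, because the culture label is shared within a number. The departures of the 2 libraries of a number from their groups' means had correlations of 0.626 to 0.765 over genes. The difference between culture sets was not removed from these departures, and correlations between libraries of different numbers were not taken. These correlations therefore cannot tell a shared culture from a shared set. The methods name no term for pairs, so the block is an alternative and is printed where it alters a call. Gene positions and exon lengths are those of GENCODE for GRCm38 and GRCh38.

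The members and lists were chosen with earlier results of these data known. Besides the members, up to 5 genes of a list were named, by smallest p among those past the threshold in either limma fit, and the 5 genes with the highest Pearson's r with Nanog or Esrrb. Reads carry no molecular identifiers, so intervals cover counting error only.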

Additional observations from a re-analysis of the deposited data

How the results depend on the processing

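The replicate block moved the counts most. With it, 1 member was higher and 4 lower with vitC in limma, in edgeR on recovered reads and after quantile normalization. With the block, total gene reads as the scale gave 4 lower and 0 higher, and DESeq2 gave 1 lower. The block without 1 pair gave between 0 and 1 higher and between 1 and 3 lower, and 1 was lower in cultures 10 and 11 only or with the culture set as a term, each time Nanog. Combinations with the block other than that in edgeR on members, the total-read scale, the mean value per culture and the halved hESC reads were chosen after seeing the data. Under the block in limma and then edgeR, the lists gave 9 and 9 other naive and core genes, 2 and 2 LIF and STAT3 genes, 3 and 5 Wnt and GSK3 genes, 4 and 5 formative and primed genes and 1 and 1 germ layer markers, with 1 fibroblast marker in edgeR and 1 gene of the 2-cell state in limma. For Nanog, 9 of 9 fits with the block and 2 of 18 without it were past the threshold. Nanog, Pou5f1, Klf2, Zfp42, Tfcp2l1 and Prdm14 kept their vitC direction in all 27 alternatives. Without 1 library their differences ranged from -0.29 to -0.19 for Nanog, -0.16 to -0.11 for Klf2, -0.20 (without vitC 35C) to -0.032 (without vitC 10) for Pou5f1, -0.19 (without vitC 35B) to -0.054 (without vitC 10) for Zfp42, 0.026 (without vitC 11) to 0.18 (without vitC 35C) for Tfcp2l1 and -0.18 (without control 10) to -0.0037 (without vitC 10) for Prdm14. The vitC difference turned for Sox2 (0.098 in cultures 35B and 35C only, -0.099 to 0.095 without 1 library, 0.017 and 0.037 with the block and without pair 10 or 11), Esrrb (-0.024 in cultures 10 and 11 only, -0.0077 with the block and without pair 35C), Klf4 (0.049 in cultures 35B and 35C only, -0.11 to 0.075 without 1 library, 0.0077 with the block and without pair 10) and Tbx3 (-0.0061 in cultures 10 and 11 only). The interaction turned for Klf4 (-0.016 to 0.31 without 1 library) and Tfcp2l1 (-0.16 to 0.099). Between culture sets, control libraries only gave 1 member higher and 3 lower, and the sign turned for Nanog (-0.030) and Esrrb (-0.0050) in controls only, and for Klf2 (0.051) and Tbx3 (0.089) in vitC libraries only, with ranges without 1 library of -0.033 to 0.033 and -0.099 to 0.017. In hESCs, 0 members differed by 1.5-fold on the variance-stabilised scale, on which genes with few reads show smaller differences. There TBX3, with 11 and 34 reads, was at 10.93 and 11.01. The cause was not tested for any of the other changes. Over all genes, the median vitC difference lay between -0.0122 and -0.00146 under the 4 scalings tried. Depth limits Prdm14, at 73 to 205 reads, and the hESC members near 0.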
